A study of Mus musculus with 8 samples.

Results

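The mesothelial and epicardial genes described here are 10 of the 54532 genes of the deposited expression table, taken by their symbols: *Msln*, *Upk1b*, *Upk3b*, *Lrrn4*, *Krt8*, *Krt18*, *Krt19*, *Wt1*, *Bnc1* and *Rspo1*. They were chosen by their measured FPKM, for the rise over the weeks in culture and the level *in vivo*, over all 8 libraries. Every difference between groups of these 10 genes is therefore given as a description, without a p-value. Where the 10 are counted against thresholds of the fit to all genes, the counts describe the choice and are no test of it. The values are FPKM, the fragments on a gene scaled by its length and by the size of the library.

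The libraries came from MICFs, the study's name for cardiac fibroblasts isolated from the infarcted hearts of adult C57BL/6 mice. In all 8 libraries the cells had been infected with tetracycline-inducible lentiviruses for the MGT construct (*Mef2c*, *Gata4* and *Tbx5*), *Myocd* and *Sall4*, and with a virus for eGFP. The *in vivo* samples were eGFP+ cells sorted from hearts into which they had been transplanted after ligation of the left anterior descending artery, in mice that received doxycycline and the immunosuppressants tacrolimus, methylprednisolone and mycophenolate mofetil. The *in vitro* samples were eGFP+ cells sorted from culture with doxycycline, the TGF-β receptor inhibitor SB431542 and the JAK inhibitor baricitinib. There were 2 libraries for each site at 1 week (Day 7) and 2 weeks (Day 14), and no library of cells without the factors. Heart and culture therefore differed in place, medium and drugs together, and these cannot be told apart. The preparation from the infarct was not purely fibroblasts, since the study's staining of it also found macrophages and endothelial cells. The animals or wells behind each replicate were not given in the sources used here, so the p-values measure only the spread between these samples, which may be technical.

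Mesothelium is the thin epithelium that lines the body cavities, and the epicardium is the mesothelial layer on the surface of the heart. Its cells are joined by junctions and carry a keratin network, yet they arise from mesoderm and keep *Wt1*, a transcription factor of the embryonic epicardium. After injury of the heart the epicardium can be reactivated, and some of its cells can lose their epithelial genes and become fibroblast-like. Mesothelial cells can also be taken up with fibroblasts when a heart is digested. In bulk RNA, fewer cells of a type and less RNA per cell cannot be told apart.

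The mean of each of the 10 genes was highest *in vitro* at 2 weeks, and each gene was lower in every *in vivo* library than in every *in vitro* library. The summed level of the 10 genes was 316 and 302 FPKM *in vitro* at 1 week, 638 and 648 FPKM *in vitro* at 2 weeks, 22.6 and 21.0 FPKM *in vivo* at 1 week, and 42.4 and 43.2 FPKM *in vivo* at 2 weeks. At 2 weeks that was 0.224% and 0.215% of all FPKM in culture, and 0.0128% and 0.0134% in the heart. At both sites, the sum was higher in each 2-week library than in each 1-week library. Behind these sums were 12859 to 23954 fragments in each culture library, and 727 to 1285 fragments in each heart library, out of 12304242 to 14546904 fragments on genes per library.

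**Figure D1:**
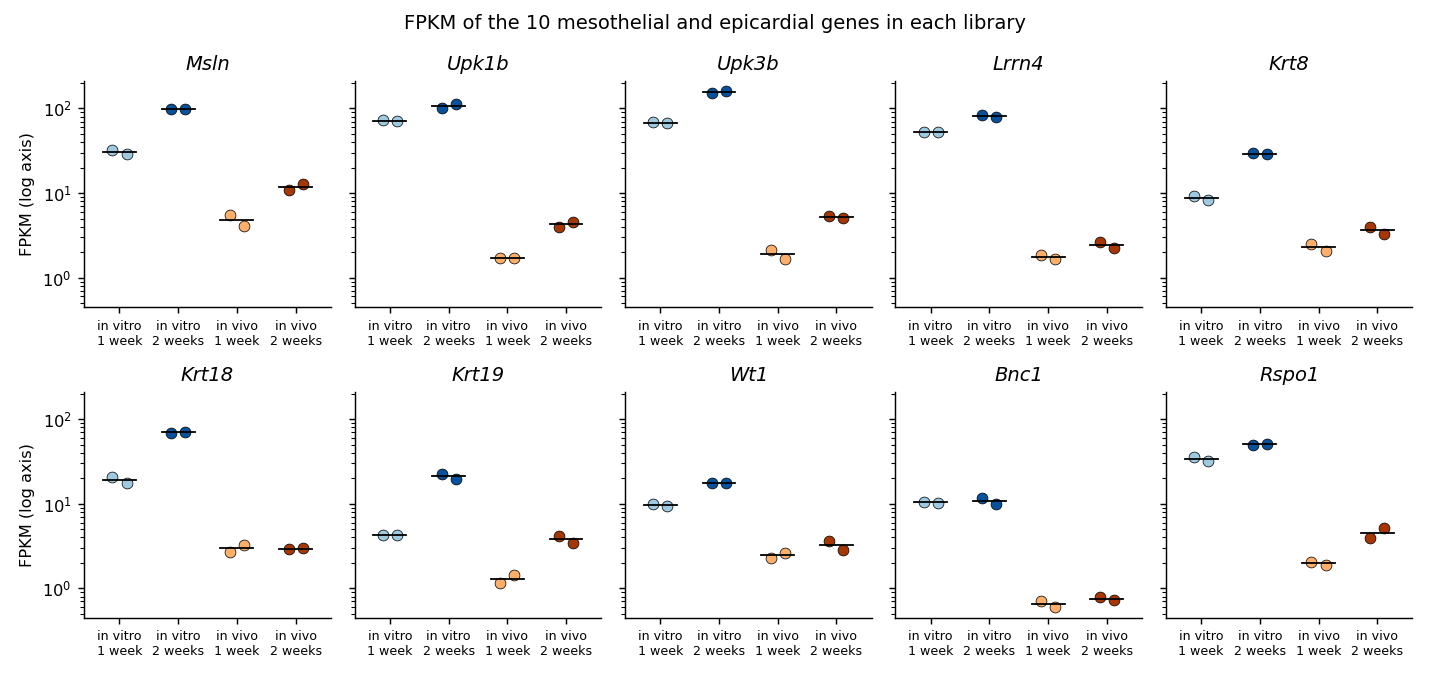
FPKM of each of the 10 genes (log axis) in the 8 libraries, by site and week. Points are single libraries and lines are means of 2 libraries. The blue *in vitro* points lie above the orange *in vivo* points in every panel, with *Msln*, *Upk1b* and *Upk3b* near 100 FPKM or above in culture at 2 weeks and *Bnc1* under 1 FPKM in the heart.

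Among the surface proteins, *Msln* (ENSMUSG00000063011, chr17:25748614-25754327, minus strand, GRCm38) encodes mesothelin, a lipid-anchored glycoprotein that binds the mucin MUC16. *Msln* was 32.5 and 29.2 FPKM *in vitro* at 1 week, 98.9 and 97.6 FPKM *in vitro* at 2 weeks, 5.49 and 4.07 FPKM *in vivo* at 1 week, and 10.9 and 12.8 FPKM *in vivo* at 2 weeks. The groups did not overlap, and *Msln* was the highest of the 10 genes in each heart library. Its mean rose 3.18-fold over the weeks in culture, a log2 difference of 1.67 ± 0.15 (SE, n = 2 against 2) on the log2(FPKM + 0.1) scale, which understates changes of low genes. Its level *in vivo* was 15.5% of that in culture at 1 week and 12.1% at 2 weeks. The binding partner of mesothelin, *Muc16*, stayed low, between 0.042 and 0.633 FPKM over all libraries.

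The uroplakins *Upk1b* (ENSMUSG00000049436, chr16:38773184-38800328, minus strand), a tetraspanin, and *Upk3b* (ENSMUSG00000042985, chr5:136038496-136046487, plus strand) are membrane proteins named for the bladder lining, and both are also known from mesothelium. *Upk1b* was 72.1 and 70.3 FPKM *in vitro* at 1 week, 102 and 113 FPKM *in vitro* at 2 weeks, 1.72 and 1.69 FPKM *in vivo* at 1 week, and 3.99 and 4.55 FPKM *in vivo* at 2 weeks. *Upk3b* was 69.1 and 67.1 FPKM *in vitro* at 1 week, 152 and 159 FPKM *in vitro* at 2 weeks, 2.13 and 1.67 FPKM *in vivo* at 1 week, and 5.40 and 5.13 FPKM *in vivo* at 2 weeks. At 2 weeks in culture, *Upk3b* ranked 259 and 262 among all genes by FPKM. *Upk3b* and *Upk1b* stood at like levels in culture at 1 week, with *Upk3b* at 0.958 and 0.955 times *Upk1b*, and at 2 weeks *Upk3b* was 1.48 and 1.41 times *Upk1b*. *Upk1b* was 41.8-fold lower *in vivo* at 1 week and 25.2-fold lower at 2 weeks, and *Upk3b* was 35.8-fold and 29.5-fold lower. The other uroplakins, 4 in number, did not pass the filter on low values (0.5 FPKM or more in 2 or more libraries) and reached 0.880 FPKM at most.

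*Lrrn4* (ENSMUSG00000043110, chr2:132868305-132880891, minus strand), a membrane protein with leucine-rich repeats, had the lowest level *in vivo* relative to culture of the 10 genes at 2 weeks. *Lrrn4* was 52.3 and 53.3 FPKM *in vitro* at 1 week, 84.3 and 79.8 FPKM *in vitro* at 2 weeks, 1.84 and 1.65 FPKM *in vivo* at 1 week, and 2.67 and 2.22 FPKM *in vivo* at 2 weeks. The heart libraries held 3.31% of the culture level at 1 week and 2.98% at 2 weeks. Its relative *Lrrn2* went the other way, with 2.91 to 3.72 FPKM *in vitro* and 9.60 to 13.6 FPKM *in vivo* (log2 difference 1.80 ± 0.11 at 1 week and 1.86 ± 0.11 at 2 weeks, adjusted p = 2.99e-05 and 1.99e-05 by limma). The *Lrrn4* C-terminal-like gene, *Lrrn4cl*, was also higher *in vivo* at 2 weeks (5.54 and 7.60 FPKM against 23.7 and 25.4 FPKM, log2 difference 1.90 ± 0.14, adjusted p = 5.63e-05).

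RefSeq start sites on GRCm38.p6 were at hand for 6 of the 10 genes (*Lrrn4*, *Rspo1*, *Upk3b*, *Bnc1*, *Krt8* and *Krt18*). They need not match the gene loci printed here. For *Lrrn4*, *Krt8* and *Krt18* the RefSeq start lies inside the printed locus, so the window before it overlaps that locus. The 250 bases before each start were searched on both strands for the letters of sites for some of the reprogramming factors and for regulators of mesothelium. These were a site for GATA factors, spelled AGATAA, a T-box site, spelled AGGTGT, the CArG box bound by SRF, through which *Myocd* acts, a TEAD site, spelled GGAATG, a WT1 core, spelled GTGGGAG, and the TATA box, spelled TATAAA. The 2 promoters that hold the TEAD letters are those of *Upk3b* (chr5:136038246-136038495, plus strand) and *Lrrn4* (chr2:132880863-132881112, minus strand). They are shown because they share these letters, 5′ to 3′, with the match in capitals, 241 bases before the start of *Upk3b*, on the opposite strand, and 196 bases before the start of *Lrrn4*.
Upk3b: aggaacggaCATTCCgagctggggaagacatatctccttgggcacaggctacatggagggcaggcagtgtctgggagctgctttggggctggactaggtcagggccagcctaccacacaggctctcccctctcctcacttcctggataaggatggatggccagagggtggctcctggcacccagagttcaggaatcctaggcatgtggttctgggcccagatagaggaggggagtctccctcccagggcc
Lrrn4: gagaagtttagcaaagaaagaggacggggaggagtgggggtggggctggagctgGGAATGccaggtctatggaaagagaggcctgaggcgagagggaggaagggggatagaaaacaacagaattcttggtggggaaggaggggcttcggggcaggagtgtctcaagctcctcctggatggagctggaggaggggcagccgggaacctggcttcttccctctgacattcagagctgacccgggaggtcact
The TEAD letters were in 12.64% of the 32851 promoters of this length. A match is a description of letters and not of binding. The T-box, CArG, WT1 and TATA letters matched in none of the 6 windows, and they were in 11.83%, 1.47%, 8.25% and 12.37% of all promoters.

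Keratins form paired filaments, in which a type II keratin such as *Krt8* (ENSMUSG00000049382, chr15:101996698-102004482, minus strand) joins a type I keratin such as *Krt18* (ENSMUSG00000023043, chr15:102028180-102032027, plus strand) or *Krt19* (ENSMUSG00000020911, chr11:100140810-100148665, minus strand). *Krt8* and *Krt18* are neighbours, 23.7 kb apart with 0 listed genes between them, and are read in opposite directions. *Krt8* was 9.29 and 8.31 FPKM *in vitro* at 1 week, 29.4 and 28.7 FPKM *in vitro* at 2 weeks, 2.53 and 2.08 FPKM *in vivo* at 1 week, and 3.98 and 3.24 FPKM *in vivo* at 2 weeks. *Krt18* was 20.8 and 17.4 FPKM *in vitro* at 1 week, 69.4 and 71.0 FPKM *in vitro* at 2 weeks, 2.67 and 3.26 FPKM *in vivo* at 1 week, and 2.90 and 2.96 FPKM *in vivo* at 2 weeks. *Krt18* was thus the gene of the 10 whose heart libraries overlapped between the weeks. *Krt19* was 4.27 and 4.26 FPKM *in vitro* at 1 week, 22.5 and 19.8 FPKM *in vitro* at 2 weeks, 1.15 and 1.45 FPKM *in vivo* at 1 week, and 4.20 and 3.47 FPKM *in vivo* at 2 weeks. *Krt19* had the largest log2 difference over the weeks in culture among the 10 genes, 2.28 ± 0.14 (4.96-fold), and its heart libraries at 2 weeks came close to its culture libraries at 1 week.

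The windows before the starts of the neighbours are shown to set them side by side, with the GATA letters in capitals. They are 250 bases before the RefSeq start of *Krt8* (chr15:102004343-102004592, minus strand) and of *Krt18* (chr15:102027966-102028215, plus strand). Both windows partly overlap the loci printed above for these genes.
Krt8: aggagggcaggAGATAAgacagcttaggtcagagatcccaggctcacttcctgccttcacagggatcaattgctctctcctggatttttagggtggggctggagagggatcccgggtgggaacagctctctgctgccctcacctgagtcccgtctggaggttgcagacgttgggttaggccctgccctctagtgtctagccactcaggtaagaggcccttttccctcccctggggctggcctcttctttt
Krt18: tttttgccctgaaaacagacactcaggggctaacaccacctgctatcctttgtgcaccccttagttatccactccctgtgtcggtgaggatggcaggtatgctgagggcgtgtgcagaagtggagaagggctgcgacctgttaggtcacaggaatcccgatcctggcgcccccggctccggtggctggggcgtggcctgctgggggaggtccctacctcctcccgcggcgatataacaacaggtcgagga
The GATA letters lay 239 bases before the start of *Krt8* and had no match in the other 5 windows, against 9.99% of all promoters. The *Krt18* window held no match to any of the letters searched.

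The balance of the keratin partners differed between the sites. The FPKM of *Krt18* divided by that of *Krt8* was 2.24 and 2.09 *in vitro* at 1 week, 2.37 and 2.47 *in vitro* at 2 weeks, 1.06 and 1.57 *in vivo* at 1 week, and 0.728 and 0.915 *in vivo* at 2 weeks. *Krt18* exceeded *Krt8* in every culture library and fell below it in the heart at 2 weeks, when *Krt19* was 1.45 and 1.17 times *Krt18*. In culture *Krt19* was 0.205 to 0.324 times *Krt18*. With the type II keratin *Krt7* added to *Krt8* and *Krt19* added to *Krt18*, the type I sum still exceeded the type II sum in each library, at 7.10 and 6.43 FPKM against 4.74 and 3.82 FPKM *in vivo* at 2 weeks. The heart values of *Krt18* rest on 45 to 61 fragments per library and those of *Krt8* on 53 to 88 fragments.

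Of the 53 keratin genes in the table, 7 passed the filter (*Krt8*, *Krt18*, *Krt19*, *Krt7*, *Krt10*, *Krt14* and *Krt80*), and of the other 46 the highest value was 0.381 FPKM. Keratins of stratified epithelium and epidermis did not share the pattern of the simple keratins. *Krt14*, a keratin of basal layers, was 0.190 to 0.586 FPKM *in vitro* and 0.680 to 1.80 FPKM *in vivo* (log2 difference 1.44 ± 0.25 at 1 week and 1.59 ± 0.25 at 2 weeks, adjusted p = 0.00346 and 0.00177 by limma). *Krt80* was also higher *in vivo* at 2 weeks (0.215 and 0.196 FPKM against 1.33 and 1.16 FPKM, adjusted p = 0.000668). *Krt10* was between 0.452 and 3.10 FPKM and was not called in any comparison. Its log2 difference was also positive *in vivo* at both weeks. At 2 weeks that difference was 1.47 or more, at an unadjusted p under 0.05 by limma.

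**Figure D2:**
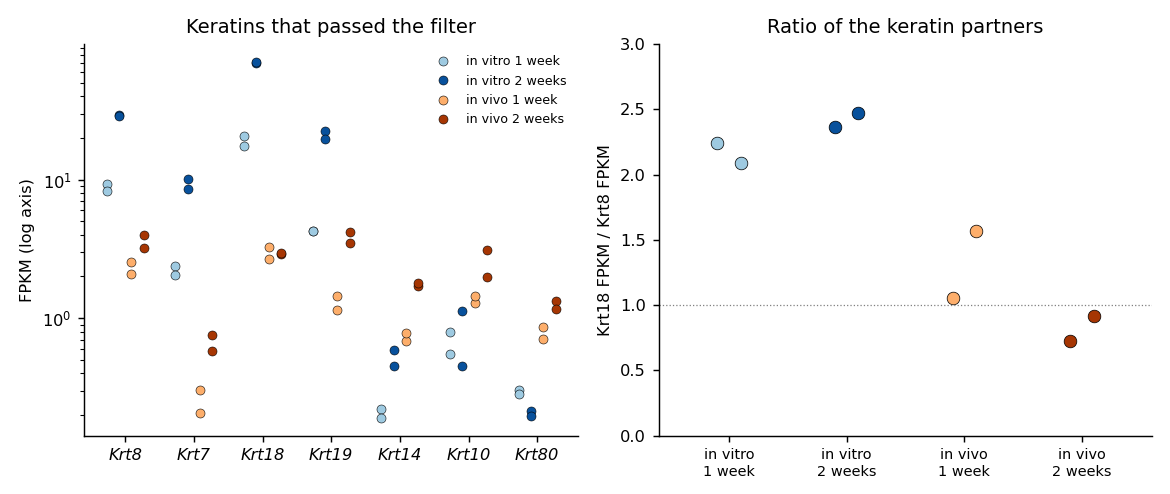
Left, FPKM (log axis) of the 7 keratins that passed the filter, with each point a library and colour the group. Right, *Krt18* FPKM divided by *Krt8* FPKM in each library, which lay between 2.09 and 2.47 *in vitro* and between 0.728 and 1.57 *in vivo*, with the dotted line at 1.

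Both transcription factors of the set are zinc finger proteins. *Wt1* (ENSMUSG00000016458, chr2:105126529-105173616, plus strand) is required for formation of the epicardium. *Wt1* was 9.80 and 9.47 FPKM *in vitro* at 1 week, 17.8 and 17.5 FPKM *in vitro* at 2 weeks, 2.30 and 2.59 FPKM *in vivo* at 1 week, and 3.65 and 2.85 FPKM *in vivo* at 2 weeks. Its heart level was 25.4% of that in culture at 1 week, below *Krt19* (30.5%) and *Krt8* (26.2%), and 18.4% at 2 weeks, where *Krt19* was at 18.1%. *Bnc1* (ENSMUSG00000025105, chr7:81966672-81992292, minus strand), basonuclin, was the gene with the least change over the weeks in culture. *Bnc1* was 10.4 and 10.3 FPKM *in vitro* at 1 week, 11.8 and 9.92 FPKM *in vitro* at 2 weeks, 0.717 and 0.595 FPKM *in vivo* at 1 week, and 0.782 and 0.721 FPKM *in vivo* at 2 weeks. Its culture libraries overlapped between the weeks (log2 difference 0.064 ± 0.14), and leaving out *in vitro* 2 weeks replicate 1 turned the difference to -0.061. Its paralogue *Bnc2*, a gene of connective tissue cells, was 0.945 to 1.62 FPKM *in vitro* and 2.69 to 4.47 FPKM *in vivo*, so it was higher in the heart (log2 difference 1.32 ± 0.16 at 1 week and 1.47 ± 0.16 at 2 weeks, adjusted p = 0.000762 and 0.000357 by limma). The heart values of *Bnc1* rest on 36 to 41 fragments per library.

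*Rspo1* (ENSMUSG00000028871, chr4:124986430-125009099, plus strand) encodes R-spondin 1, a secreted protein that strengthens Wnt signalling by binding LGR receptors and removing the ubiquitin ligases ZNRF3 and RNF43 from the cell surface. *Rspo1* was 35.8 and 31.9 FPKM *in vitro* at 1 week, 50.0 and 51.4 FPKM *in vitro* at 2 weeks, 2.07 and 1.90 FPKM *in vivo* at 1 week, and 3.93 and 5.19 FPKM *in vivo* at 2 weeks. It was 17.0-fold lower *in vivo* at 1 week and 11.1-fold lower at 2 weeks. Among the other R-spondins only *Rspo3* passed the filter, at 2.27 to 3.30 FPKM over all libraries and with no call in any comparison. Of the 14 listed R-spondin and Wnt response genes, 7 passed the filter and 0 were called by limma between sites or between weeks, with 2 to 5 of the 7 at an unadjusted p under 0.05 in each comparison. Of the receptors, *Lgr4* was 2.34 to 2.49 FPKM *in vitro* and 3.76 to 4.76 FPKM *in vivo*, and *Lgr5* was 0.520 FPKM or less. *Axin2*, a common target of Wnt signalling, was 2.14 and 1.61 FPKM *in vitro* at 1 week, 1.73 and 1.16 FPKM *in vitro* at 2 weeks, 0.853 and 0.850 FPKM *in vivo* at 1 week, and 1.72 and 1.89 FPKM *in vivo* at 2 weeks. These receptor and target genes were named after their values had been seen.

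As a group, the 10 genes had a median log2 difference of 1.03 over the weeks in culture, against 0.016 over the 15708 genes tested. At 2 weeks both culture libraries lay above both 1-week libraries for 9 of the 10 genes, *Bnc1* being the exception, where 34.8% of all tested genes did so. With the thresholds set at an adjusted p below 0.01 and a log2 difference beyond 1 in size, 5 of the 10 were past them (*Msln*, *Upk3b*, *Krt8*, *Krt18* and *Krt19*), against 2.76% of all tested genes in that direction. Just inside the fold threshold was *Upk3b* at 1.19, and just outside it was *Wt1* at 0.87. Since the genes were picked for this rise, these counts describe the choice and are no test of it. The same holds between the sites, where 10 of 10 were lower *in vivo* past the thresholds at each week (5.07% of all tested genes at 1 week and 8.05% at 2 weeks, with 36.6% and 37.4% not overlapping in that direction), with median log2 differences of -3.24 and -3.57. The differences ran from -5.30 (*Upk1b*) to -1.65 (*Krt19*) at 1 week and from -5.02 (*Lrrn4*) to -2.42 (*Wt1*) at 2 weeks. Without the scaling between libraries that the deposited FPKM carry, the median difference of all tested genes was -0.343 at 1 week and -0.330 at 2 weeks, in place of -0.006 and -0.003, and all 10 stayed past the thresholds.

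The change from 1 week to 2 weeks within the heart rests on the same heart libraries by whose level the genes were chosen, so it is described in the same way. In both 2-week heart libraries 9 of the 10 genes were higher than in both 1-week ones, *Krt18* being the exception, where 28.7% of all tested genes were. The log2 difference was largest for *Krt19* (1.49 ± 0.14, 2.95-fold) and *Upk3b* (1.43 ± 0.11, 2.77-fold). It was 1.30 ± 0.15 (2.48-fold) for *Msln*, 1.27 ± 0.084 (2.51-fold) for *Upk1b* and 1.15 ± 0.13 (2.30-fold) for *Rspo1*. Those 5 of the 10 were past both thresholds and 0 were past them in the other direction, beside 1.23% of all tested genes that were higher and 0.949% that were lower. Nothing is read from these counts, since the values chose the genes. Just inside the fold threshold was *Rspo1*, and just outside it was *Krt8* (0.62 ± 0.13). *Lrrn4* had a difference of 0.46 ± 0.10, *Wt1* of 0.39 ± 0.13 and *Bnc1* of 0.18 ± 0.14. The difference for *Krt18* was -0.011 ± 0.12, the sole one of the 10 that was not positive, and its sign turned without *in vivo* 1 week replicate 2 (0.13) or without *in vivo* 2 weeks replicate 1 (0.0042). The median of the 10 was 0.89, against -0.003 over all tested genes.

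The alternative fits re-use the same libraries, whose values chose the genes, so nothing is read from the counts they give for the 10. How many of the 10 were past the thresholds within the heart changed with the libraries and the settings used. With only the 4 heart libraries in the fit it was 0 of 10, and 0 of all tested genes. Without *in vivo* 1 week replicate 1 it was 1 of 10 (*Upk3b*) and 11 genes in all, against 342 with every library, and without *in vivo* 1 week replicate 2 it was 2 of 10 and 89 genes in all. Leaving out either *in vivo* 2 weeks library, or either *in vitro* 2 weeks library, left 3 of 10, as did a pseudocount of 1 or a fit without the intensity trend, and leaving out *in vitro* 1 week replicate 1 left 4 of 10. *Upk3b* was past them under 17 of 18 alternatives, *Upk1b* under 15, *Krt19* under 14, *Msln* under 10 and *Rspo1* under 9.

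**Figure D3:**
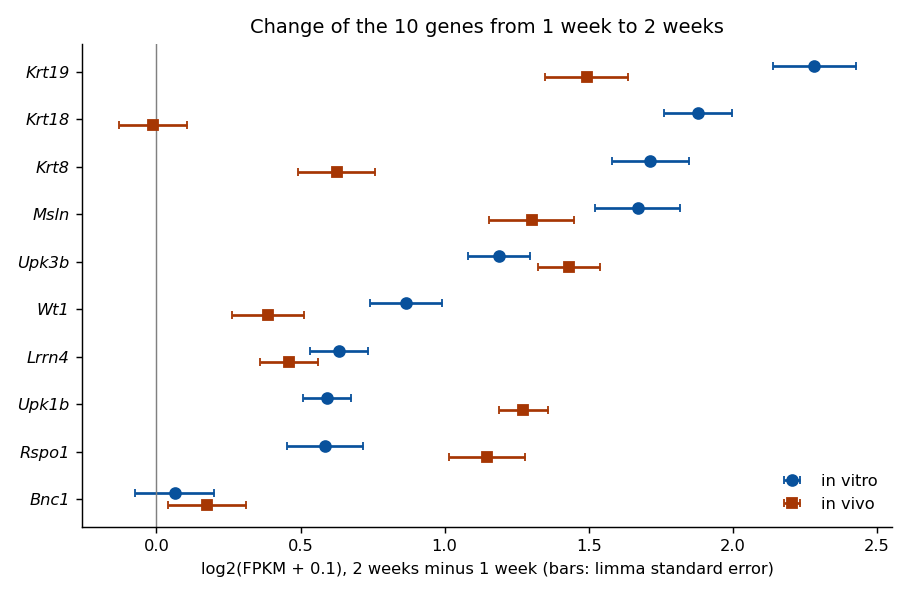
Difference between 2 weeks and 1 week for each of the 10 genes on the log2(FPKM + 0.1) scale, *in vitro* (circles) and *in vivo* (squares), with bars of 1 standard error from limma. The squares lie between -0.011 (*Krt18*) and 1.49 (*Krt19*), and the circles between 0.064 (*Bnc1*) and 2.28 (*Krt19*).

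The order of the genes by their change over the weeks was not alike at the sites. Side by side, the log2 difference over the weeks was 1.88 in culture and -0.011 in the heart for *Krt18*, and 1.71 and 0.62 for *Krt8*. *Upk1b* was 0.59 in culture and 1.27 in the heart, and *Rspo1* was 0.58 and 1.15. The fit to all tested genes also covered the difference between these changes. For the 10 genes no p is given for it, since their values chose them. Over all tested genes, 1.73% were called for such a difference.

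Another 28 genes known from mesothelium or epicardium were listed, and 25 passed the filter. *Calb2*, which encodes calretinin, a protein used to recognise human mesothelium, was 0.102 FPKM or less, and *Cldn1* and *Upk3bl* also did not pass. Over the weeks in culture 5 of the 25 rose and 0 fell, with a median log2 difference of 0.52 (2.76% of all tested genes rose and 1.05% fell). These were *Nkain4* (1.40 ± 0.093), *Cldn15*, a claudin of tight junctions (1.92 ± 0.13), *Krt7* (2.01 ± 0.21), *Podxl*, the sialomucin podocalyxin (1.28 ± 0.089), and the laminin receptor *Bcam* (1.13 ± 0.087), with adjusted p of 0.00143 or less by limma. *Krt7* was 2.40 and 2.05 FPKM at 1 week and 8.52 and 10.05 FPKM at 2 weeks in culture. Under quantile normalization *Bcam* was not called.

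Between the sites, 11 of these 25 genes were lower *in vivo* at 1 week and 11 at 2 weeks, with medians of -1.08 and -1.04. Of all tested genes 5.07% and 8.05% were lower. *Ezr*, the membrane-to-actin linker ezrin, was 99.3 to 169 FPKM *in vitro* and 22.6 to 26.8 FPKM *in vivo* (log2 difference -2.14 ± 0.055 and -2.64 ± 0.055). *Gpm6a*, a membrane glycoprotein of epicardium, was 46.8 to 81.0 FPKM *in vitro* and 2.84 to 9.31 FPKM *in vivo* (-3.94 ± 0.18 and -3.30 ± 0.18). The retinaldehyde dehydrogenase *Aldh1a1* (-1.67 ± 0.11 and -1.04 ± 0.11) and *Bcam* (-1.08 ± 0.087 and -1.34 ± 0.087) were lower at both weeks. *Aldh1a2*, the retinoic acid enzyme of the embryonic epicardium, was called lower at 2 weeks (-1.57 ± 0.087, adjusted p = 1.71e-05 by limma). Its difference of -0.60 ± 0.087 at 1 week (adjusted p = 0.00169) did not pass the fold threshold, so it was not called then. The other calls had adjusted p of 0.00739 or less.

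A smaller number of listed genes went the other way, 3 at 1 week and 4 at 2 weeks, where 7.79% and 9.02% of all tested genes were higher *in vivo*. *Anxa8* was 1.90 to 2.74 FPKM *in vitro* and 13.5 to 26.2 FPKM *in vivo* (log2 difference 2.73 ± 0.10 at 1 week and 3.32 ± 0.10 at 2 weeks), and the secreted protease inhibitor *Slpi* was 1.71 to 2.80 FPKM *in vitro* and 4.42 to 28.8 FPKM *in vivo* (1.55 ± 0.21 and 3.19 ± 0.21). *Podxl* was higher *in vivo* at 1 week (1.01 ± 0.089), a call that was lost without the scaling between libraries (0.67). At 2 weeks the guidance protein *Sema3d* (1.68 ± 0.10) and the prostacyclin synthase *Ptgis* (1.35 ± 0.099) were higher. The epicardial transcription factor genes *Tbx18*, at 8.56 to 14.3 FPKM, and *Tcf21*, at 31.6 to 65.4 FPKM, were not called in any comparison. *Tcf21* is also known from resident cardiac fibroblasts.

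**Figure D4:**
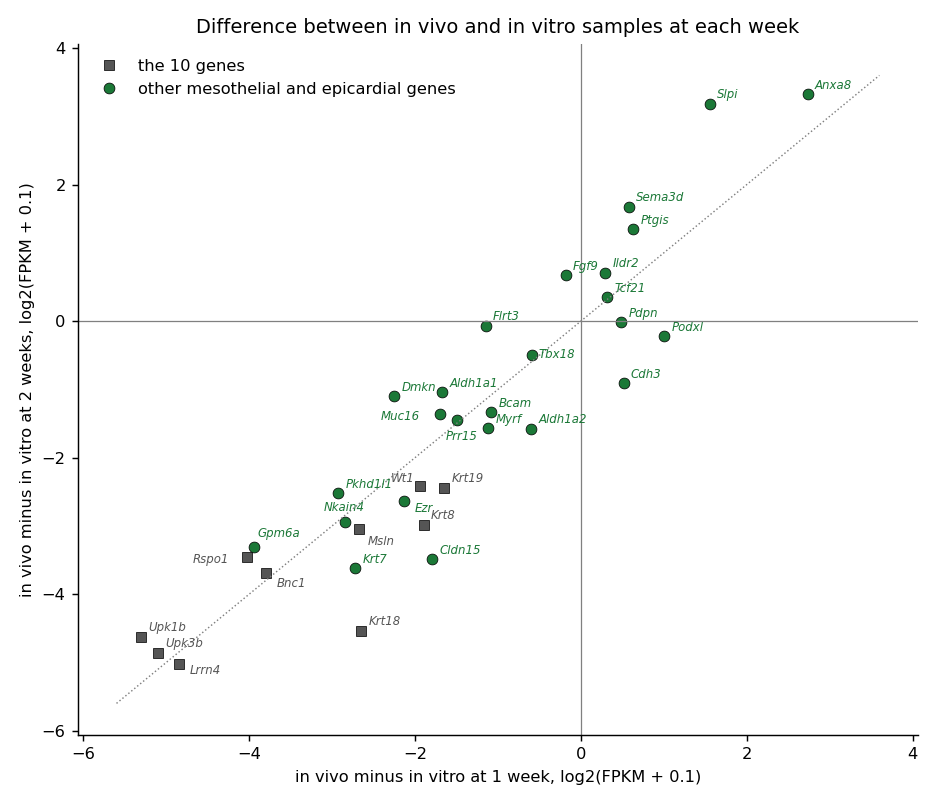
Log2(FPKM + 0.1) *in vivo* minus *in vitro* at 1 week (horizontal axis) and at 2 weeks (vertical axis) for the 10 genes (squares) and the 25 tested other mesothelial and epicardial genes (circles), with a dotted line where the values are equal. The 10 genes lie in the lower left, down to -5.30 (*Upk1b*) and -5.02 (*Lrrn4*), while *Anxa8* and *Slpi* lie in the upper right.

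Within the heart, 4 of the 25 rose over the weeks and 1 fell, beside 1.23% and 0.949% of all tested genes. *Slpi* rose by 2.19 ± 0.21, the skin and mesothelium gene *Dmkn* by 2.31 ± 0.31, *Nkain4* by 1.30 ± 0.093 and *Gpm6a* by 1.27 ± 0.18, while the cadherin *Cdh3* fell by 1.10 on the log2 scale (SE 0.089). Their adjusted p were 0.00697 or less. Without *in vivo* 1 week replicate 1 there was 1 call in this list and without *in vivo* 1 week replicate 2 there were 2, while the fits that left out any other library gave 3 or 4.

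Markers of simple epithelia other than mesothelium were mostly absent, with 9 of 20 past the filter. *Epcam* was 0.0888 FPKM or less and the E-cadherin gene *Cdh1* 0.483 FPKM or less in every library, and *Grhl2* and *Esrp1*, regulators of epithelial identity, were 0.0411 FPKM or less. Those that were measured were mainly junction genes. *Cldn3* (2.27 and 2.13 FPKM at 1 week, 11.03 and 8.59 FPKM at 2 weeks) and the desmosomal gene *Dsp* (1.98 and 2.67 FPKM, then 5.40 and 5.02 FPKM) rose in culture (log2 difference 2.10 ± 0.16 and 1.15 ± 0.19, adjusted p = 0.000498 and 0.00704 by limma), and 0 fell. The list had 1 call in place of 2 whichever library was left out. *Cgn*, which encodes the tight junction protein cingulin, was 4.90 to 5.46 FPKM *in vitro* and 0.0736 to 0.170 FPKM *in vivo* (-4.54 ± 0.23 and -4.87 ± 0.23). *Perp* and *Dsp* were also lower *in vivo* at both weeks, and *Cldn3* at 2 weeks. That made 3 of the 9 lower at 1 week and 4 at 2 weeks, beside 5.07% and 8.05% of all tested genes. In culture 2 of the 9 had risen over the weeks, beside 2.76% of all tested genes. Within the heart *Perp* alone was called, with a rise of 1.05 ± 0.11 (adjusted p = 0.00244), and there were 0 calls without either *in vivo* 1 week library or without *in vivo* 2 weeks replicate 2.

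Of 12 listed genes of the transition from epithelium to mesenchyme, 0 rose and 1 fell over the weeks in culture (*Prrx1*, -1.01 ± 0.069, adjusted p = 0.000373 by limma), and between the sites 2 were higher in the heart and 1 was lower at 1 week, with 4 and 1 at 2 weeks. Among all tested genes, the heart level was called above culture for 7.79% at 1 week and for 9.02% at 2 weeks. It was called below culture for 5.07% and 8.05%. Over the weeks in culture, 2.76% of all tested genes rose and 1.05% fell past the same thresholds. The list was mixed between the sites. At 1 week 7 of the 12 log2 differences were positive and 5 negative, with a median of 0.064 and a range of -2.507 to 1.61. At 2 weeks 8 were positive and 4 negative, with a median of 0.46 and a range of -3.115 to 1.46. *Snai1*, which encodes a repressor of epithelial genes, was 19.1 to 36.8 FPKM *in vitro* and 48.1 to 51.4 FPKM *in vivo*, and was higher *in vivo* at 1 week (1.28 ± 0.081, adjusted p = 4.02e-05). *Vim*, the mesenchymal filament vimentin, was 290 to 408 FPKM *in vitro* and 725 to 833 FPKM *in vivo*, and was higher *in vivo* at 2 weeks (1.46 ± 0.071, adjusted p = 9.64e-06).

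Markers of other cell types moved between the same groups. The summed level of the 10 fibroblast markers, among them the collagen genes, was 2303 to 3770 FPKM *in vitro* and 10864 to 14736 FPKM *in vivo*, with 7 of 10 higher in the heart at each week, and fibroblast genes were present in all libraries. The 8 cardiomyocyte markers summed to 166 and 188 FPKM *in vitro* at 1 week and 1224 and 1032 FPKM *in vitro* at 2 weeks. They summed to 15.9 to 46.2 FPKM *in vivo*, so their sum rose in culture and was low in the heart, as that of the 10 genes was. Of the 8, 5 were called higher over the weeks in culture and 7 lower *in vivo* at each week. At 2 weeks 1 of the 8 went the other way and was called higher *in vivo*, with a log2 difference of 2.385. At 1 week 1 of the 8 also had a positive difference, of 1.211, and was not called. The 9 macrophage markers summed to 3819 to 4962 FPKM *in vitro* and 1335 to 2131 FPKM *in vivo*, with 1 of 9 lower *in vivo* at 1 week and 5 of 9 at 2 weeks, and none of them was at 0 in any library. The 6 endothelial markers summed to 19.8 to 47.7 FPKM *in vitro* and 63.8 to 80.5 FPKM *in vivo*, with 4 of 6 rising in culture. The 6 smooth muscle markers summed to 847 to 991 FPKM *in vitro* and 526 to 734 FPKM *in vivo*. Of all tested genes, 7.79% and 9.02% were called higher *in vivo* at 1 week and 2 weeks, and 5.07% and 8.05% lower. Over the weeks in culture 2.76% were called higher. The part of these cell types in the levels of the 10 genes was not tested.

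**Figure D5:**
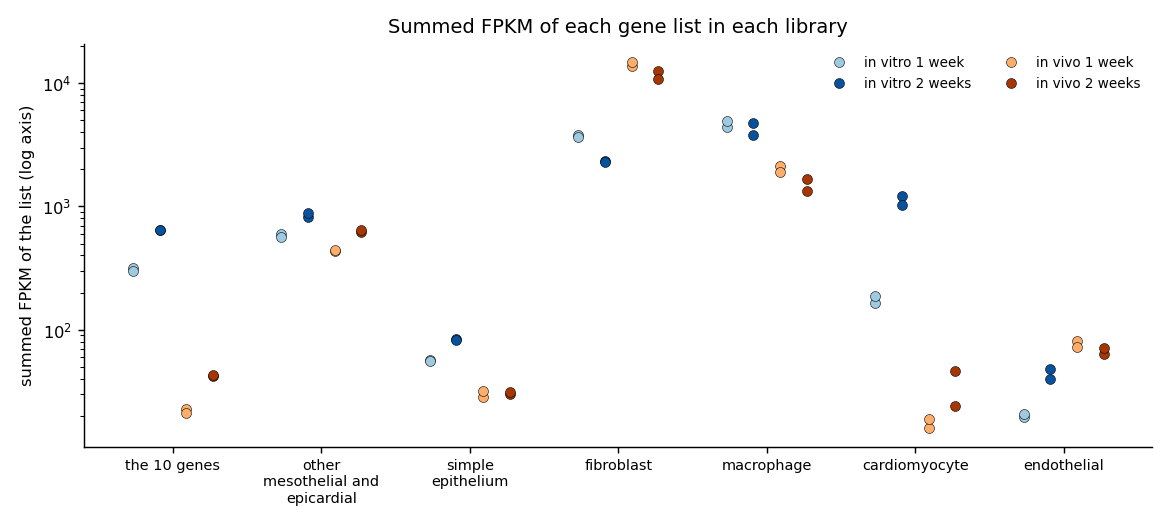
Summed FPKM (log axis) of each gene list in the 8 libraries, with each point a library and colour the group. The 10 genes sum to 302 to 648 FPKM *in vitro* and 21.0 to 43.2 FPKM *in vivo*, while the fibroblast markers are higher *in vivo*.

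Across the 8 libraries the 10 genes followed each other closely. They were chosen by their values over these same libraries, so their likeness describes the choice and is no test of it. Pearson's r between a gene and the mean of the other 9 (z-scores of log2(FPKM + 0.1)) was 0.874 for *Krt19* and 0.952 to 0.995 for the rest, and it was highest for *Wt1*. The lowest r of any pair was 0.743 and the median 0.959. The 8 libraries fall into 4 groups, so these values describe the order of the groups and not 8 independent points. The protein-coding genes with the most similar course to the mean of the 10 were the splicing factor *Srsf5* (r = 0.999), *Plekhf1* (0.998), the lactate dehydrogenase subunit *Ldhb* (0.997), *Tmem151a* (0.997), the respiratory chain gene *Ndufa9* (0.996), the cardiac troponin gene *Tnnt2* (0.995), the laminin-binding integrin *Itga3* (0.995) and *Inka2* (0.994). *Tnnt2*, for example, was 52.3 and 54.0 FPKM *in vitro* at 1 week, 139 and 128 FPKM *in vitro* at 2 weeks, 5.08 and 5.54 FPKM *in vivo* at 1 week, and 7.27 and 10.7 FPKM *in vivo* at 2 weeks. Pearson's r does not measure the size of a change, and some of these genes changed much less. At 2 weeks *Srsf5* was 113 and 108 FPKM *in vitro* and 45.6 and 44.6 FPKM *in vivo*. *Ndufa9* was 25.4 and 25.7 FPKM *in vitro* and 18.4 and 17.8 FPKM *in vivo* at that time. Such a course, whatever its size, was common, since 504 of 11434 genes (4.41%) had an r over 0.95 with the mean of the 10.

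Of the 10 genes, *Krt8*, *Bnc1* and *Rspo1* each overlap a gene on the opposite strand, by 271, 291 and 580 bases, and those genes (*Gm36026*, *4833418N17Rik* and *Gm12930*) were 0.0466, 0.823 and 0.321 FPKM at most. In the heart libraries *Gm36026* was 0.0466 FPKM at most and the other two were 0 throughout. Whether the counting used strand was not given in the sources used here, and without strand the reads of such pairs cannot be told apart.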

How the data were processed

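RNA from sorted eGFP+ cells was sequenced in 8 libraries, 2 in each of 4 groups. The authors deposited FPKM values per gene, made by a sequencing provider (Novogene) from libraries of a SMARTER mRNA kit. The submitters' processing notes name CASAVA, HISAT2 2.0.5 and mm10, while the counting tool and annotation are not given in the sources used here. Of 54409 shared gene identifiers, 98.3% had the same start and end as GENCODE on GRCm38, as did 9 of the 10 genes (*Msln* differs slightly). In each library FPKM times length came out as whole multiples of 1 unit (within 0.05) for 100% of values, which gave the fragments per gene, 12304242 to 14546904 per library. The library size behind the FPKM was 0.863 to 0.915 times those fragments *in vivo* and 1.09 to 1.15 times *in vitro*, so the FPKM carry a scaling between libraries. Fragment numbers cover counting error only.

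The 15708 genes that reached 0.5 FPKM in 2 or more libraries were compared as log2(FPKM + 0.1) with limma 3.58.1 in R 4.3.3, in a model of 4 group means with an intensity trend. A gene was called at a Benjamini-Hochberg adjusted p under 0.01 over all tested genes and an absolute log2 difference over 1. The levels of 0.01 and 2-fold follow the authors, who state a P and do not say that it was adjusted, and whose DESeq2 analysis was not repeated. The comparisons share libraries. The 10 genes and the lists were chosen with earlier results of these data known, and no p is given for the 10, whose values chose them. Named beside the 10 were list genes called in a comparison (at most 6, by FPKM), their family genes, counts of 5 or fewer, and the 8 genes most correlated with the 10. Some other genes were named after their values had been seen. Alternatives were other pseudocounts, filters and scalings, no trend, voom on the recovered fragments, a replicate block, the 4 libraries of a comparison alone and each library left out. The fit was tested on simulated data. Promoter sequences came from RefSeq (GRCm38.p6). Python 3.11.15, numpy 2.4.6, pandas 2.3.3 and matplotlib 3.10.9 were used.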

Additional observations from a re-analysis of the deposited data

Results flagged for a closer look

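For 12 of the listed genes outside the 10, the change over the weeks differed between the heart and culture by an interaction contrast in limma (8 libraries), where 1.73% of all tested genes were called. The change in the heart minus the change in culture, on the log2 scale, was -1.69 ± 0.18 (SE) for *Cldn15* (adjusted p = 0.00468), -1.23 ± 0.13 for *Podxl* (adjusted p = 0.00398) and -2.12 ± 0.23 for *Cldn3* (adjusted p = 0.0044), and these 3 rose in culture and were not called in the heart. For *Cdh3* it was -1.42 ± 0.13 (adjusted p = 0.00342), with a fall in the heart. It was positive for *Sema3d* (1.10 ± 0.14, adjusted p = 0.00752) and for *Nkd1*, an inhibitor of Wnt signalling (1.26 ± 0.092, adjusted p = 0.00238). *Nkd1* was 10.05 and 10.1 FPKM *in vitro* at 1 week, 6.88 and 6.94 FPKM *in vitro* at 2 weeks, 5.72 and 5.69 FPKM *in vivo* at 1 week, and 9.43 and 9.52 FPKM *in vivo* at 2 weeks. *Podxl* is also known from endothelium, and the summed endothelial markers were 19.8 and 20.7 FPKM *in vitro* at 1 week, 47.7 and 40.2 FPKM *in vitro* at 2 weeks, 80.5 and 72.9 FPKM *in vivo* at 1 week, and 63.8 and 70.7 FPKM *in vivo* at 2 weeks. Of the 6 endothelial markers, 3 were called in the same direction as *Podxl*, *Pecam1* (-1.72 ± 0.22, adjusted p = 0.00683), *Cdh5* (-2.23 ± 0.21, adjusted p = 0.00365) and *Kdr* (-1.83 ± 0.22, adjusted p = 0.00623). Their part in the levels of *Podxl* was not tested. The value was also negative for the cardiomyocyte marker *Tnni3* (-2.76 ± 0.37, adjusted p = 0.00808) and for the smooth muscle markers *Cnn1* (-1.004 ± 0.14, adjusted p = 0.00845) and *Rgs5*, also known from pericytes (-2.71 ± 0.25, adjusted p = 0.00365). Groups of 2 libraries are too small to look for a library far from the rest.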

How the results depend on the processing

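The medians of the 10 genes kept their sign under each alternative run. The median log2 difference between the sites was -2.63 at 1 week and -3.09 at 2 weeks with a pseudocount of 1, and -3.57 and -3.89 without the scaling between libraries, which also moved the share of calls that were higher *in vivo* over all genes to 36.7% at 1 week (60.6% with it) and 32.9% at 2 weeks (52.8% with it). Within the heart the median was 0.68 with a pseudocount of 1. Leaving out 1 library gave medians of 1.00 to 1.05 over the weeks in culture, -3.40 to -3.19 and -3.64 to -3.50 between the sites, and 0.79 to 0.98 over the weeks in the heart. Signs turned for *Bnc1* in culture (-0.061 without *in vitro* 2 weeks replicate 1, in a range up to 0.19) and for *Krt18* in the heart (0.13 and 0.0042 without *in vivo* 1 week replicate 2 and *in vivo* 2 weeks replicate 1, in a range down to -0.15).

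With only the 4 libraries of a comparison, 0 genes of all tested were called over the weeks at either site, so the other mesothelial and epicardial genes and the simple epithelium markers went to 0 calls there, and 0 of the 10 genes were past the thresholds in the heart. Of the other mesothelial and epicardial genes, 3 were called in the heart over the weeks without the filter and without the intensity trend, and 1 to 4 with a library left out (4 to 5 in culture, 11 to 14 and 13 to 15 between the sites). Of the simple epithelium markers, 1 in place of 2 was called in culture with a pseudocount of 1, without the filter, without the trend and with any library left out, and 0 in place of 1 in the heart with a pseudocount of 1 (0 to 1 with a library left out, and 3 to 3 and 4 to 5 between the sites). All calls over the weeks fell from 342 to 11 and 89 in the heart without *in vivo* 1 week replicate 1 or 2, and voom called 862 genes in culture and 504 in the heart, against 599 and 342.

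Deviations of same-numbered replicates correlated at -0.048 to -0.011 between groups across genes, so the numbers were not taken as pairs. With the replicate block, 448 genes were called in culture and 236 in the heart over the weeks, and 1 simple epithelium marker in culture, while the other list results stayed within 1.5 times. The cause of these changes was not tested. In the heart 25 to 300 fragments lay on each of the 10 genes per library, which limits how small a difference can be seen. The spread was more than counting error, since the mean chi-square per gene between replicates (1 degree of freedom) was 5.73 and 9.93 in the heart and 4.95 and 4.50 in culture.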
